A study of Mus musculus with 21 samples.

Results

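Transcripts of 9 genes of eosinophils, mast cells and basophils were followed through 7 sorted fractions of C57BL/6 mouse bone marrow, each measured on 3 arrays (21 in total). The genes were chosen by name, with earlier results of these data known, from array probes whose RefSeq accession maps to the symbol. They are 9 of the 18217 genes with a named probe. Each was read by 1 probe. The fractions were KLS (lin- ckit+ sca1+), the multipotent starting population, then, for the erythroid lineage, PreMegE, CFUe and Ter119 and, for the myeloid lineage, PreGM, GMP and Mac1Gr1. The labels gave PreMegE as CD150+ CD105- and negative for the Fc gamma receptor, gave CFUe and PreGM the same markers as each other (CD150- CD105-, receptor negative), gave GMP as CD150- and receptor positive, and sorted the mature cells on CD71+ Ter119+ or on Mac1+ Gr1+. All were untreated cells of 1 strain, and no age or sex was used here. The labels did not say whether the 3 arrays of a fraction came from separate animals or pools, so the p values measure only the spread between these samples, which may be technical. Because the samples are bulk RNA, fewer cells of a type and less RNA per cell cannot be told apart.

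Eosinophils, mast cells and basophils are granulocytes that store effector proteins in cytoplasmic granules and take part in allergy and in defence against parasites. Those formed in bone marrow come from progenitors that overlap with those of neutrophils. The transcription factors GATA1, GATA2, C/EBP alpha and PU.1, known for setting erythroid and myeloid fates, each also act in some or all of these cell types. The eosinophil granule proteins were represented by Prg2 (major basic protein), Prg3 (its homologue), Epx (eosinophil peroxidase) and Rnase2a (an eosinophil-associated ribonuclease). The mast cell and basophil genes were Cpa3 (the mast cell protease carboxypeptidase A3), Mcpt8 (a basophil protease), Ms4a2 and Fcer1a (the beta and alpha chains of the high-affinity IgE receptor) and Hdc (histidine decarboxylase, which makes histamine).

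Start regions from RefSeq were matched for 8 of the 9 genes, all but Prg2. Of these, 4 are shown. Prg3 and Epx followed each other most closely among the 9 genes, and Cpa3 and Ms4a2 were the pair not called between PreMegE and GMP. Each line holds the 250 bases before the annotated start on the gene's strand in GRCm38.p6, with the letters GATAA or their reverse complement in capitals. They lie at chr2:84987965-84988214 (plus strand, Prg3), chr11:87875537-87875786 (minus strand, Epx), chr3:20242182-20242431 (minus strand, Cpa3) and chr19:11623720-11623969 (minus strand, Ms4a2). The array annotation names the older build mm9, and these coordinates were not used with it.
Prg3: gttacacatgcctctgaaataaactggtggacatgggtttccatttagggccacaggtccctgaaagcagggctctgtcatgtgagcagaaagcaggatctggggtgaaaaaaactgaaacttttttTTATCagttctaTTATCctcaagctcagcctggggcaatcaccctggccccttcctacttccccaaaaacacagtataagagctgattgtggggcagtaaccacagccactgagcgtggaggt
Epx: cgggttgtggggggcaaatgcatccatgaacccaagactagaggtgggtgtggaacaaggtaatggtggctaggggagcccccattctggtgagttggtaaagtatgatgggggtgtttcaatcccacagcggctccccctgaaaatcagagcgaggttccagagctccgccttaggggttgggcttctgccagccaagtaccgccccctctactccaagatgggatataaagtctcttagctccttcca
Cpa3: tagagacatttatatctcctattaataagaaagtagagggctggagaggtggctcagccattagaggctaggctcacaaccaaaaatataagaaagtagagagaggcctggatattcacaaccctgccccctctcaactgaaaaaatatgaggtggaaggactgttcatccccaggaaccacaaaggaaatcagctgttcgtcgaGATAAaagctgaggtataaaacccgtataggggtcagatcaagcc
Ms4a2: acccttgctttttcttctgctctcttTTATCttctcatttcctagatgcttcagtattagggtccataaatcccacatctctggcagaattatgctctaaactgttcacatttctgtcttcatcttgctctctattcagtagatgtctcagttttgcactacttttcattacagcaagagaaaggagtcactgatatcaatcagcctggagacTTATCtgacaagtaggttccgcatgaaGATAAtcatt
The core letters GATAA, searched on both strands, stood in 5 of the 8 windows (Prg3, Rnase2a, Cpa3, Ms4a2 and Fcer1a) and in 22.6% of 32851 windows of the same length. Ms4a2 held them 3 times, at 224 to 220, 37 to 33 and 10 to 6 bases before the start, and the middle match was also the only one among the 8 genes to the longer AGATAAG, which contains GATAA and was in 2.74% of all windows. The ETS core GGAAG was in 5 of 8 windows and in 64.1% of all, the longer PU.1 letters GGAAGTG, which contain GGAAG, in 0 of 8 and 8.55%, and the C/EBP letters TTNNGNAA in 3 of 8 and 36.8%. These matches are descriptions of the letters and not sites.

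Levels are given as log2 of the background-corrected signal after subtracting that array's 75th percentile, so a level of 0 equals that percentile and levels are compared between fractions for 1 gene, not between genes. A probe was called when limma gave an adjusted p under 0.05 (Benjamini-Hochberg, 29527 probes tested) and the change was at least 2-fold. All 9 genes passed the filter for testing. For all 21 arrays the closest other array belonged to the fraction of the same name, and 56.4% to 77.4% of probes on an array were well above background. The third CFUe and the third PreGM array stood somewhat apart. Ltf, a neutrophil granule gene, was at -0.84 on the third CFUe array against -3.99 and -3.24 on the others, and at -0.12 on the third PreGM array against -3.79 and -3.75. The labels listed sca1+ for every progenitor, but Ly6a, which encodes Sca-1, was at 2.57 ± 0.17 in KLS, -3.14 ± 0.22 in PreMegE, -5.81 ± 1.21 in CFUe, -0.31 ± 0.10 in PreGM and 2.10 ± 0.03 in GMP (SD, n = 3).

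The 4 eosinophil granule transcripts were low in PreGM and high in GMP, whereas 4 of the 5 chosen mast cell and basophil genes were not called between these fractions. In the longer lists given below, 7 of 19 further mast cell and basophil genes were called higher in GMP and 4 lower. Of 7 further eosinophil genes, 3 were called higher, all of them ribonucleases, and 0 lower. Over all probes the shares were 4.01% higher and 6.36% lower. Prg2 was at -2.80, -4.44 and -4.78 on the PreGM arrays and at 5.20, 4.94 and 4.56 on the GMP arrays. Prg3 was between -4.74 and -4.54 in PreGM and between 0.75 and 1.28 in GMP. Rnase2a was between -4.46 and -3.99 in PreGM and between 2.05 and 2.71 in GMP. For Prg2, Prg3 and Rnase2a, the gap between the fractions was many times the spread within either. Epx was already higher in PreGM than in KLS, at -2.22, -1.43 and -1.35, and stood at 2.36, 2.19 and 2.24 in GMP.

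From PreGM to GMP, 5 of the 9 genes were called higher and 0 lower, against 4.01% of all probes higher, 6.36% lower and 10.4% in either direction. All 4 eosinophil genes were among them. Prg2 rose by 8.91 ± 0.53 on the log2 scale (SE; adjusted p = 4.07e-09), 480.4-fold, and Rnase2a by 6.59 ± 0.29 (adjusted p = 1.72e-10), 96.0-fold. Prg3 rose 51.3-fold and Epx 15.3-fold. The median change of the 4 was 6.13, against -0.02 over all probes tested. Of the 5 mast cell and basophil genes, Hdc alone was called, with a rise of 2.10 ± 0.25 (adjusted p = 1.09e-05), 4.27-fold, and their median change was 0.75. Hdc had its highest mean level in Mac1Gr1, at 7.56, and which cell type carried its rise was not tested. Cpa3 changed by -0.60 (95% interval -2.01 to 0.80; adjusted p = 0.57) and Ms4a2 by -0.03 (-0.82 to 0.77; adjusted p = 0.972), which does not show that their levels were equal. Mcpt8 differed by 0.75 (adjusted p = 0.153), and Fcer1a by 0.87 with an adjusted p of 0.00289, below the 2-fold limit. With slide as a block in the fit, the change of Fcer1a was 1.05 (adjusted p = 0.00317) and it was called higher.

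The 1 slide that held both a PreGM and a GMP array gave differences of 8.01 for Prg2, 5.99 for Prg3, 4.58 for Epx and 6.69 for Rnase2a, and of -0.03 for Cpa3 and 0.54 for Ms4a2. Neutrophil genes rose over the same step, with 6 of 12 called higher, against 4.01% of all probes. Among them was Elane, neutrophil elastase, at 2.43 in PreGM and 6.54 in GMP. Of 11 monocyte and macrophage genes, 2 were called higher. The part of both lists in the result was not tested. When arrays were scaled to the spike-in RNAs instead, the median of all probes itself shifted by 0.99 from PreGM to GMP. The change was then 1.77 for Mcpt8 and 1.89 for Fcer1a, both called higher, and 0.41 for Cpa3 and 0.99 for Ms4a2, neither called.

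**Figure D1:**
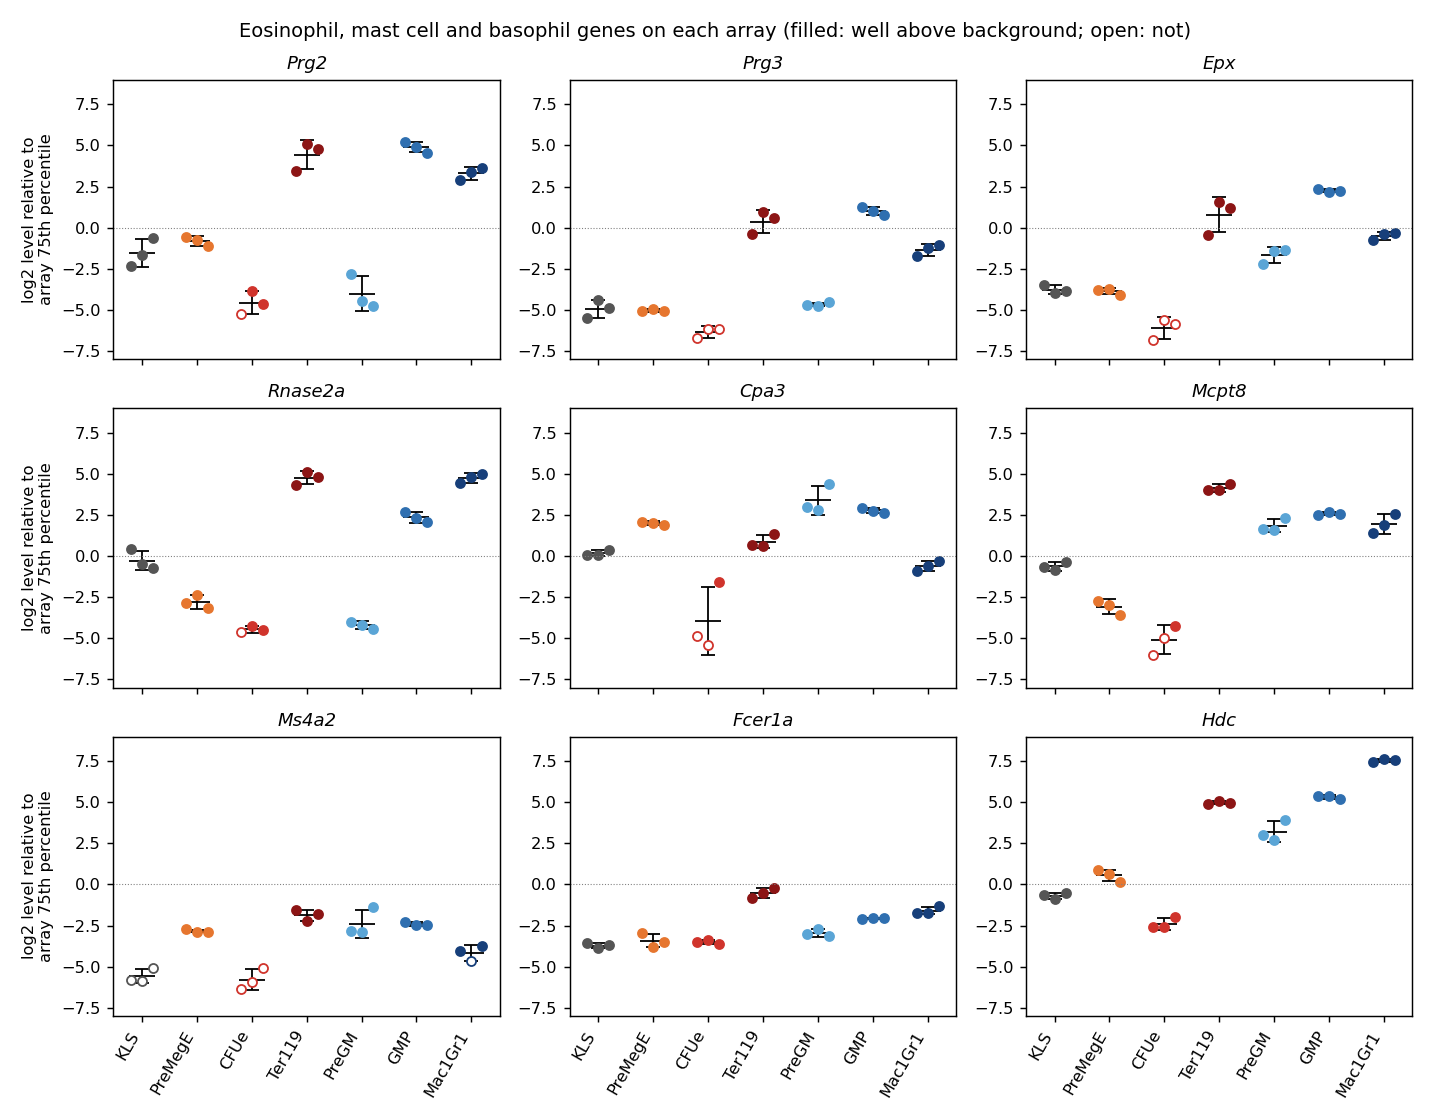
Level of each of the 9 genes on each array (points, log2 signal relative to the 75th percentile of the array), by fraction, with the mean and SD of the 3 arrays of a fraction in black. Open points mark arrays on which the probe was not well above background. The 4 eosinophil genes step up between PreGM and GMP, and every gene is higher in Ter119 than in CFUe.

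The comparison of PreMegE with GMP set the earlier erythroid and megakaryocytic progenitor against the later myeloid one, so lineage and stage cannot be told apart in it. Most of the 9 genes were lower in PreMegE. The counts were 7 called lower and 0 higher, against 9.69% of all probes lower, 12.5% higher and 22.1% in either direction. Epx was at -3.79, -3.74 and -4.09 in PreMegE and thus 70.6-fold below GMP, with a change of -6.14 ± 0.40 (adjusted p = 2.12e-09). Prg3 was 66.4-fold lower, Prg2 52.4-fold lower and Rnase2a 35.8-fold lower. The median change of the 4 eosinophil genes was -5.88, against 0.05 over all probes. Mcpt8 was 51.0-fold lower (-2.71, -2.95 and -3.58 against 2.50, 2.70 and 2.59; adjusted p = 1.93e-09) and Hdc 27.2-fold lower (adjusted p = 1.73e-10). Fcer1a was lower by a smaller amount, 2.52-fold (adjusted p = 2.58e-05), and with normexp background correction its change of -0.78 was under 2-fold.

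Cpa3 and Ms4a2 were the 2 genes not called. Cpa3 was at 2.08, 2.04 and 1.87 in PreMegE and at 2.95, 2.74 and 2.63 in GMP. The arrays did not overlap, but the change of -0.78 (95% interval -2.19 to 0.63) had an adjusted p of 0.369. Ms4a2 was at -2.74, -2.88 and -2.87 in PreMegE and at -2.29, -2.48 and -2.46 in GMP, a change of -0.42 (-1.21 to 0.38; adjusted p = 0.394). On the slide that held both fractions the difference was -0.91 for Cpa3 and -0.59 for Ms4a2, against -5.94 for Prg2, -6.11 for Epx and -5.45 for Mcpt8. The test used 1 estimate of spread over all fractions, and it depended on the third CFUe and the third PreGM array. Without them Cpa3 had an adjusted p of 0.00663 and Ms4a2 of 0.177, and in a fit of PreMegE and GMP alone the values were 0.00435 and 0.0227, in which both passed the test but stayed under 2-fold. Under the spike-in scaling, which moved the median of all probes by -0.81, Cpa3 (-1.64, adjusted p = 0.0209) and Ms4a2 (-1.28, adjusted p = 0.00432) were called lower too.

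Of the IgE receptor chains, Fcer1g, the gamma chain shared with other Fc receptors, was at 1.94 in PreMegE and 4.95 in GMP, a change of -3.01 (adjusted p = 4.28e-08). Of 12 genes of signalling below the IgE receptor, Lat, an adaptor, was called higher in PreMegE (4.24, adjusted p = 3.47e-09), and Plcg2, a phospholipase C, was called lower beside Fcer1g (-1.25, adjusted p = 0.000238). That is 1 called higher and 2 lower, against 12.5% and 9.69% of all probes. The other 9 were not called, and the median over the 12 was 0.21.

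Against PreGM, its counterpart at the same stage, PreMegE was higher for some of the eosinophil genes and lower for others. The counts were 2 called higher and 3 lower of 9, against 5.81% and 6.23% of all probes and 12% in either direction. Prg2 was at -0.57, -0.74 and -1.13 in PreMegE, all above the PreGM values, a 9.16-fold difference (3.20 ± 0.53, adjusted p = 0.000209). Rnase2a was 2.69-fold higher (adjusted p = 0.00121), with 0.62 and no call under normexp. Epx was 4.63-fold lower (adjusted p = 0.000482) and Prg3 differed by -0.37 (adjusted p = 0.434), so the granule genes that changed together between PreGM and GMP did not change together here. Mcpt8 was 30.3-fold lower (adjusted p = 3.06e-08) and Hdc 6.36-fold lower (adjusted p = 4.95e-07). Within the 2 slides that held both fractions, the difference was 2.06 and 3.65 for Prg2, -2.74 and -1.52 for Epx and -5.88 and -4.61 for Mcpt8.

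**Figure D2:**
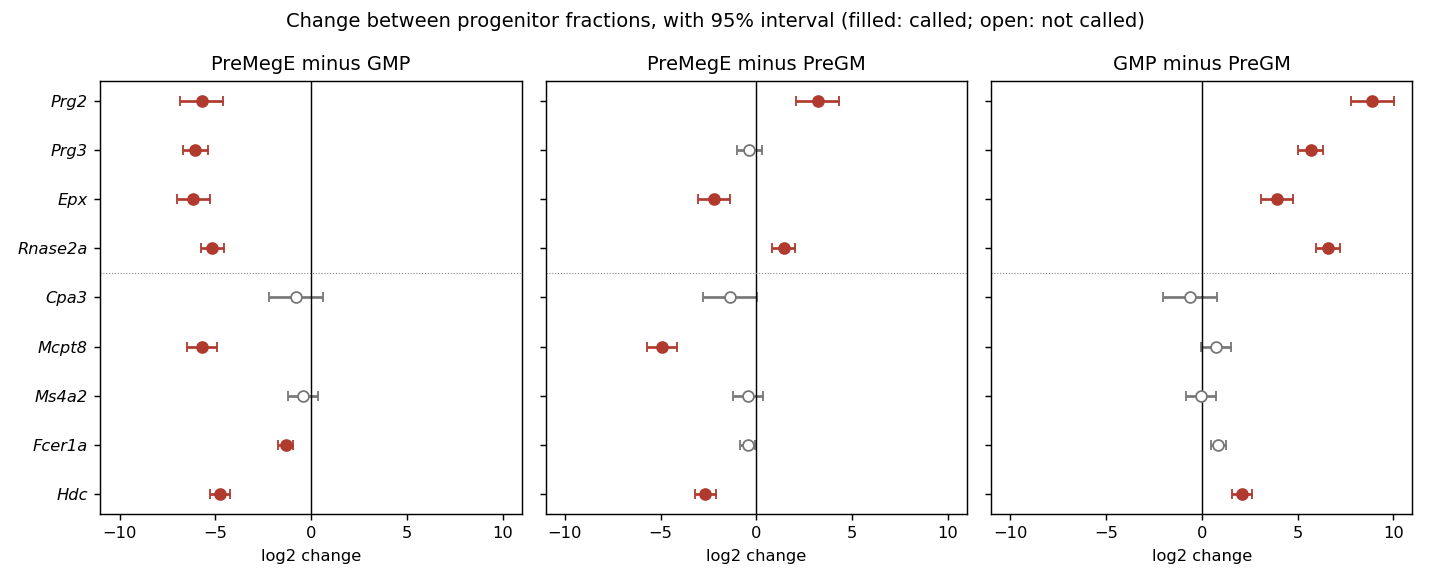
Log2 change of each gene (points) with its 95% interval (bars) in PreMegE minus GMP, PreMegE minus PreGM and GMP minus PreGM, the eosinophil genes above the dotted line. Filled points were called. Cpa3 and Ms4a2 are open in all 3 panels, and the eosinophil genes rise by 3.93 to 8.91 between PreGM and GMP.

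In KLS, the fraction before the lineages part, 8 of the 9 genes were well above background on all 3 arrays. Relative to KLS, PreGM had 5 of 9 genes called higher and 2 lower (2.11% and 6.52% of all probes, 8.63% in either direction), and PreMegE had 2 higher and 2 lower (3.55% and 8.86%, 12.4% in either direction). The 2 genes lower in PreGM were Prg2 (-2.46, adjusted p = 0.0029) and Rnase2a (-3.95, adjusted p = 7.15e-08). Hdc rose towards both progenitors, from -0.68 ± 0.19 in KLS to 3.22 ± 0.64 in PreGM and 0.55 ± 0.35 in PreMegE. On no KLS array was Ms4a2 well above background. In the main processing it was at least 8.13-fold higher in PreGM (adjusted p = 1.2e-05) and at least 5.97-fold higher in PreMegE (adjusted p = 2.52e-05). The log2 change in PreGM was 1.14 at its lowest over the alternatives, under that bound. With normexp correction the log2 change in PreMegE was 0.83 and not called. Mcpt8 moved in opposite directions, 5.56-fold higher in PreGM and 5.44-fold lower in PreMegE. Cpa3 rose 9.27-fold in PreGM (adjusted p = 0.00211), while its difference in PreMegE was 1.83 with an adjusted p of 0.0531, or 7.94e-06 without the third CFUe and the third PreGM array.

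With slide as a block, Mcpt8 (-2.33 in place of -2.44, adjusted p = 0.0566) and Hdc (1.22 in place of 1.23, adjusted p = 0.13) lost their call in PreMegE against KLS, and Epx (1.86 in place of 2.10, adjusted p = 0.0638) and Cpa3 (3.92 in place of 3.21, adjusted p = 0.0572) in PreGM against KLS, each with the same direction. KLS shared no slide with PreMegE or PreGM. Rnase2a was at 0.40, -0.50 and -0.72 in KLS. All 11 monocyte and macrophage genes were well above background on all 3 KLS arrays. Of these, 10 were called lower from KLS to PreMegE together with Rnase2a, against 8.86% of all probes, and their part in the result was not tested. In GMP all 9 genes were higher than in KLS (8% of all probes called higher, 13.7% lower and 21.7% in either direction), from 3.10-fold for Fcer1a to 87.5-fold for Prg2.

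CFUe held the lowest mean level of 8 of the 9 genes. For Prg2, Rnase2a and Ms4a2 the next fraction in order did not pass the test against it (adjusted p = 0.393, 0.514 and 0.649). Ms4a2 was not well above background on any array of CFUe or of KLS, its neighbour. Of the 9, 8 were called lower than in PreMegE (14.7% of all probes lower, 9.96% higher, 24.7% in either direction) and 9 lower than in GMP (14.2% lower, 12.1% higher, 26.3% in either direction). Cpa3 was at -4.87 and -5.42 on the first and second CFUe arrays, neither well above background, and at -1.58 on the third. It was 62.0-fold lower than in PreMegE with all arrays (-5.96, adjusted p = 1.21e-06) and at least 109.9-fold lower without the third CFUe array. For Prg3, Epx and Ms4a2 no CFUe array was well above background, so their folds are bounds that hold for the main processing only. Epx was at least 1.99-fold and Ms4a2 at least 4.11-fold below PreMegE. Prg3 was called lower than in PreMegE by the fit, but its bound was under 1, so no fold is given, and with slide as a block its change of -0.99 was under 2-fold. Against GMP Prg3 was at least 58.9-fold, Epx at least 140.4-fold and Ms4a2 at least 5.49-fold lower. Prg2 was at -5.23 (not well above background), -3.85 and -4.64, 13.6-fold below PreMegE, and Hdc 7.71-fold below. Fcer1a alone was not called between PreMegE and CFUe, with a change of -0.10 (95% interval -0.51 to 0.31). With normexp correction, which adds an offset to dim signals, 3 genes were called lower in CFUe than in PreMegE, and the change of Fcer1a against GMP (-0.77) was under 2-fold.

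In the mature erythroid fraction the picture turned: all 9 genes were higher in Ter119 than in CFUe, where 29.2% of all probes were called higher, 28% lower and 57.2% in either direction. Mcpt8 was at 4.03, 4.01 and 4.40, 601-fold above CFUe. Rnase2a was at 4.34, 5.12 and 4.81, 593-fold above, and Prg2 at 3.45, 5.11 and 4.78, 519-fold above. In CFUe, Mcpt8 was well above background on 1 of 3 arrays, and Rnase2a and Prg2 on 2 of 3. The folds of these genes thus rest partly on dim signals. Over the alternatives their lowest log2 changes were 6.82 for Mcpt8, 7.27 for Rnase2a and 7.21 for Prg2. In the main processing Prg3 was at least 37.7-fold, Epx at least 50.1-fold and Ms4a2 at least 7.94-fold higher. The first Ter119 array was the lowest of its fraction for all 4 eosinophil genes. The 75th percentile itself was lower on the Ter119 arrays (7.61 to 8.19 on the log2 scale) than on the CFUe arrays (8.98 to 9.25). With spike-in scaling the log2 change was 7.86 for Mcpt8 and 1.61 for Fcer1a, and all 9 genes stayed called.

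The Ter119 arrays also carried transcripts of other lineages. The 12 neutrophil genes were all well above background and their summed signal was 4717 to 5926 times the 75th percentile, close to the 5265 to 5895 in Mac1Gr1 and above the 5.86 to 45.1 in CFUe. The 10 B and T cell genes were all well above background on every Ter119 array, with summed signals of 111 to 157, against 1.43 to 4.39 in CFUe, and the 11 monocyte and macrophage genes summed to 314 to 362, against 0.70 to 2.35. The 10 erythroid genes summed to 1498 to 1866. Ltf was at 9.07 ± 0.04 in Ter119 and 9.75 ± 0.05 in Mac1Gr1. Transcripts of these other lineages thus moved with the rise of the 9 genes, and their part in it was not tested.

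Compared with Mac1Gr1, 5 of the 9 genes were higher in Ter119 and Hdc was lower, against 22% of all probes higher, 19.9% lower and 41.9% in either direction. Ms4a2 was 4.86-fold higher (adjusted p = 4.77e-05), Mcpt8 4.57-fold (adjusted p = 5.92e-05), Prg3 3.29-fold, Epx 2.44-fold and Fcer1a 2.09-fold. Hdc was 6.01-fold higher in Mac1Gr1 (adjusted p = 1.4e-07). Prg2 (1.15, adjusted p = 0.0675) and Cpa3 (1.48, adjusted p = 0.0607) missed the threshold, and Rnase2a had a difference of 0.00 (95% interval -0.61 to 0.61). Epx lost its call without the second Ter119 array (0.90, adjusted p = 0.0668), and Fcer1a fell under 2-fold without the third Ter119 array (0.91) or without the first or the second Mac1Gr1 array (1.0 each). Without the first Ter119 array Prg2 was called (1.65, adjusted p = 0.0155), and without the third CFUe and the third PreGM array Cpa3 was (adjusted p = 1.83e-05). With normexp correction Ms4a2 (0.74) and Fcer1a (0.77) were not called, while Prg2 (1.51, adjusted p = 0.000674) and Cpa3 (1.42, adjusted p = 0.0031) were. Prg2 and Cpa3 were also called with quantile scaling (adjusted p = 0.0164 and 0.0381) and with the authors' normalized table (0.0253 and 0.0461). Quantile scaling left Fcer1a (0.99) under 2-fold. In a fit of Ter119 and Mac1Gr1 alone Epx lost its call (adjusted p = 0.0543). With spike-in scaling 3 genes were called, 2 higher (Mcpt8 and Ms4a2) and Hdc lower.

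From GMP to Mac1Gr1 the genes separated again, with 2 called higher and 5 lower, against 29.1% and 27.6% of all probes and 56.7% in either direction. Hdc reached 7.46, 7.64 and 7.58 (4.75-fold above GMP, adjusted p = 3.82e-07) and Rnase2a 4.44, 4.82 and 5.01 (5.24-fold above, adjusted p = 8.61e-07). Cpa3 was 10.4-fold lower, Epx 6.83-fold, Prg3 5.13-fold, Ms4a2 3.36-fold and Prg2 3.04-fold. With slide as a block Prg2 (adjusted p = 0.147) and Ms4a2 (adjusted p = 0.0788) lost their call, and no slide held both fractions. Under spike-in scaling, which lowered the median of all probes by -1.86, the rises of Hdc (0.22) and Rnase2a (0.36) were not called. Fcer1a (-1.54, adjusted p = 0.000308) and Mcpt8 (-2.67, adjusted p = 3.2e-07) were then called lower. The directions given above thus hold relative to the other transcripts of the array.

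**Figure D3:**
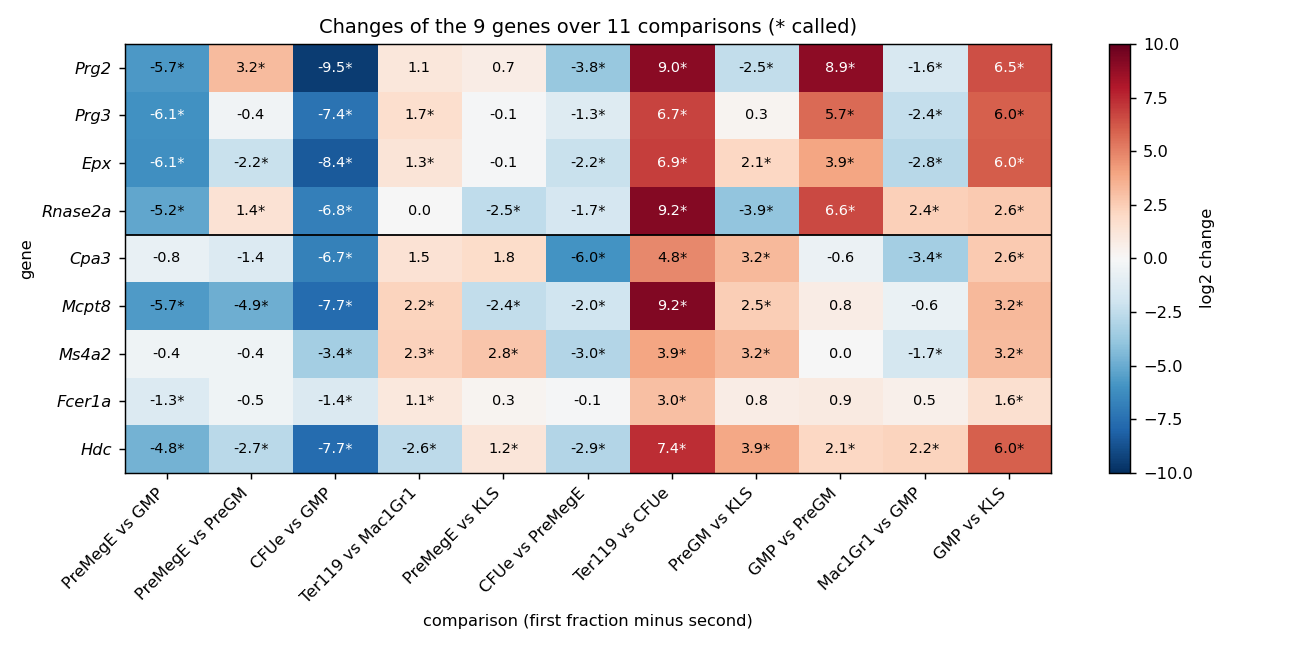
Log2 change of each gene (rows) in the 11 comparisons (columns, first fraction minus second), with the value in each cell and a star where it was called. Every gene is lower in CFUe than in GMP and higher in Ter119 than in CFUe.

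At the first step from KLS the lineage difference equals PreMegE minus PreGM, given above, and 5 of the 9 genes were called. At each of the later steps the change differed between the lineages for all 9 genes. Between the second and first progenitors, the difference of differences, CFUe minus PreMegE less GMP minus PreGM, ran from -12.67 for Prg2 to -0.97 for Fcer1a, with 34.3% of all probes differing at an adjusted p under 0.05. At the last step, Ter119 minus CFUe less Mac1Gr1 minus GMP, it ran from 2.49 for Fcer1a to 10.62 for Prg2, with 55% of all probes differing. For Prg3, Epx and Ms4a2 these values rest on CFUe arrays not well above background. With CFUe at its bound they were -5.51, -4.92 and -2.01 at the earlier and 7.60, 8.42 and 4.74 at the last step. Without the third CFUe and the third PreGM array, Fcer1a did not pass at the earlier step (-0.83, adjusted p = 0.0508).

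The order of the fractions by mean level differed among the genes, except that Prg3 and Epx shared one. In it KLS and PreMegE did not pass the test as neighbours for Prg3 (adjusted p = 0.872) or Epx (adjusted p = 0.877). For Prg3, GMP and Ter119 (adjusted p = 0.0682) and PreGM and KLS (adjusted p = 0.549) did not pass either. Prg2, Prg3 and Epx were highest in GMP, followed by Ter119 and Mac1Gr1. For Prg2 neither GMP and Ter119 (adjusted p = 0.45) nor Ter119 and Mac1Gr1 (adjusted p = 0.0675) passed the test as neighbours, whereas for Epx both pairs did. Rnase2a was highest in Mac1Gr1 and Ter119 (adjusted p = 0.998 between them), then GMP. Mcpt8 (adjusted p = 0.00113 over GMP) and Fcer1a (adjusted p = 0.000137 over Mac1Gr1) were highest in Ter119, and Hdc in Mac1Gr1. Cpa3 was highest in PreGM at 3.38 ± 0.86, and no neighbouring fractions in its order passed the test down to Mac1Gr1, which was above CFUe (adjusted p = 0.000202). This depended on the third CFUe and the third PreGM array. Without them GMP and PreMegE passed the test for Cpa3 (adjusted p = 0.00663), and PreGM and GMP did not (adjusted p = 0.782). For Ms4a2, Ter119, PreGM, GMP and PreMegE followed each other with no pair of neighbours passing the test. Of the 9 genes, 8 had CFUe last, and Fcer1a alone had KLS last. CFUe was not told apart from its neighbour for Prg2 (PreGM, adjusted p = 0.393), Rnase2a (PreGM, adjusted p = 0.514), Ms4a2 (KLS, adjusted p = 0.649) and Fcer1a (KLS, adjusted p = 0.385).

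As a description over the 21 arrays, which share the fractions, Prg3 correlated with Epx at 0.946 and with Prg2 at 0.945, and Prg2 with Rnase2a at 0.917. Cpa3 correlated most with Ms4a2, at 0.788, and least with Rnase2a, at 0.087. Among the 14281 other genes compared, Rnase2a was most like Ear1 (0.994), Ear6 (0.984) and Ear10 (0.979), ribonucleases of the same multigene family, and whether the probes of such near-identical genes share signal was not tested. Prg2 was most like Fcnb (0.951), Mogat2 and Prg3, Prg3 most like Epx, Fcnb and Prg2, and Epx most like 1700020L24Rik (0.960), Ero1b and Prg3. Cpa3 was most like Plac8 (0.970), Spns3 and Bin1, and Mcpt8 most like Pld4 (0.973), Endou and Ccr2. Ms4a2 had the loosest matches, F10 (0.833), Gamt and Stag3. Fcer1a was most like Alox12e (0.944), Ypel5 and Prss34, a basophil protease, and Hdc most like Hp (0.987), Trem3 and Clec5a.

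Other genes of these cell types were read from longer lists. Of 7 further eosinophil genes tested, 4 were called lower in PreMegE than in GMP and 0 higher, against 9.69% and 12.5% of all probes. Ear6, well above background on 1 of 3 PreMegE arrays, changed by -5.81, Ear1 by -5.13 and Ear10 by -4.79. From PreGM to GMP 3 of the 7 were called higher (4.01% of all probes), the same ribonucleases. None of them was well above background on a PreGM array, and the rise was at least 102.1-fold for Ear1, 61.4-fold for Ear6 and 28.8-fold for Ear10. These ribonucleases correlated with Rnase2a at 0.979 to 0.994. Whether their probes share signal with it was not tested, so they may not count as separate genes. Il5ra, the eosinophil receptor for IL-5, was low, at -5.01 in GMP and -2.89 in Ter119.

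Of 19 further mast cell and basophil genes tested, 4 were called higher in PreMegE than in GMP and 7 lower, against 12.5% and 9.69% of all probes. Il1rl1, the IL-33 receptor, was higher by 3.95 (adjusted p = 9.65e-08), Ltc4s, leukotriene C4 synthase, by 3.37 and Slc18a2, a vesicular monoamine transporter, by 2.57. Lower in PreMegE were Gzmb, granzyme B (-4.75), the basophil protease Prss34 (-4.19) and Fcer1g (-3.01). Genes of this list therefore lay on both sides of the comparison. From PreGM to GMP 7 of the 19 were called higher and 4 lower (4.01% and 6.36% of all probes), Prss34 rising by 5.09 and Gzmb by 3.93 while Ltc4s fell by 2.66 on the log2 scale, Slc18a2 by 1.23 and Il1rl1 by 1.18.

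Receptor chains for IL-3, IL-5 and GM-CSF, the cytokines that support these cells, were mostly lower in PreMegE than in GMP. Of the 5, 4 were called lower, against 9.69% of all probes. Csf2rb, the shared beta chain, changed by -4.05 (adjusted p = 2.21e-09), its IL-3 specific relative Csf2rb2 by -3.06 and Csf2ra, the GM-CSF alpha chain, by -1.45. Il5ra, well above background on no PreMegE array and on 2 GMP arrays, was at least 1.38-fold lower. Il3ra, the IL-3 alpha chain, was at 2.0 in PreMegE and 2.71 in GMP (adjusted p = 0.102). From PreGM to GMP, Csf2ra alone of the 5 was called, higher by 1.43 (adjusted p = 6.22e-07), against 4.01% of all probes higher.

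Of 13 transcription factors measured, 5 were called higher in PreMegE than in GMP and 7 lower, against 12.5% and 9.69% of all probes. Gata1 was higher by 5.39 (adjusted p = 2.23e-11), its partner Zfpm1 by 5.22 and Gata2 by 4.52. Lower in PreMegE were Irf8, a monocyte factor (-5.91), Mitf, a mast cell factor (-4.45), Cebpa (-3.44) and Spi1, which encodes PU.1 (-2.90). Over the PreGM to GMP step, where the eosinophil genes rose, Gata1 fell from -0.75 to -2.91 and Gata2 from 2.79 to 0.68. Cebpa (2.20 and 2.52; adjusted p = 0.52) and Spi1 (0.48 and 0.71; adjusted p = 0.711) were not called at that step.

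**Figure D4:**
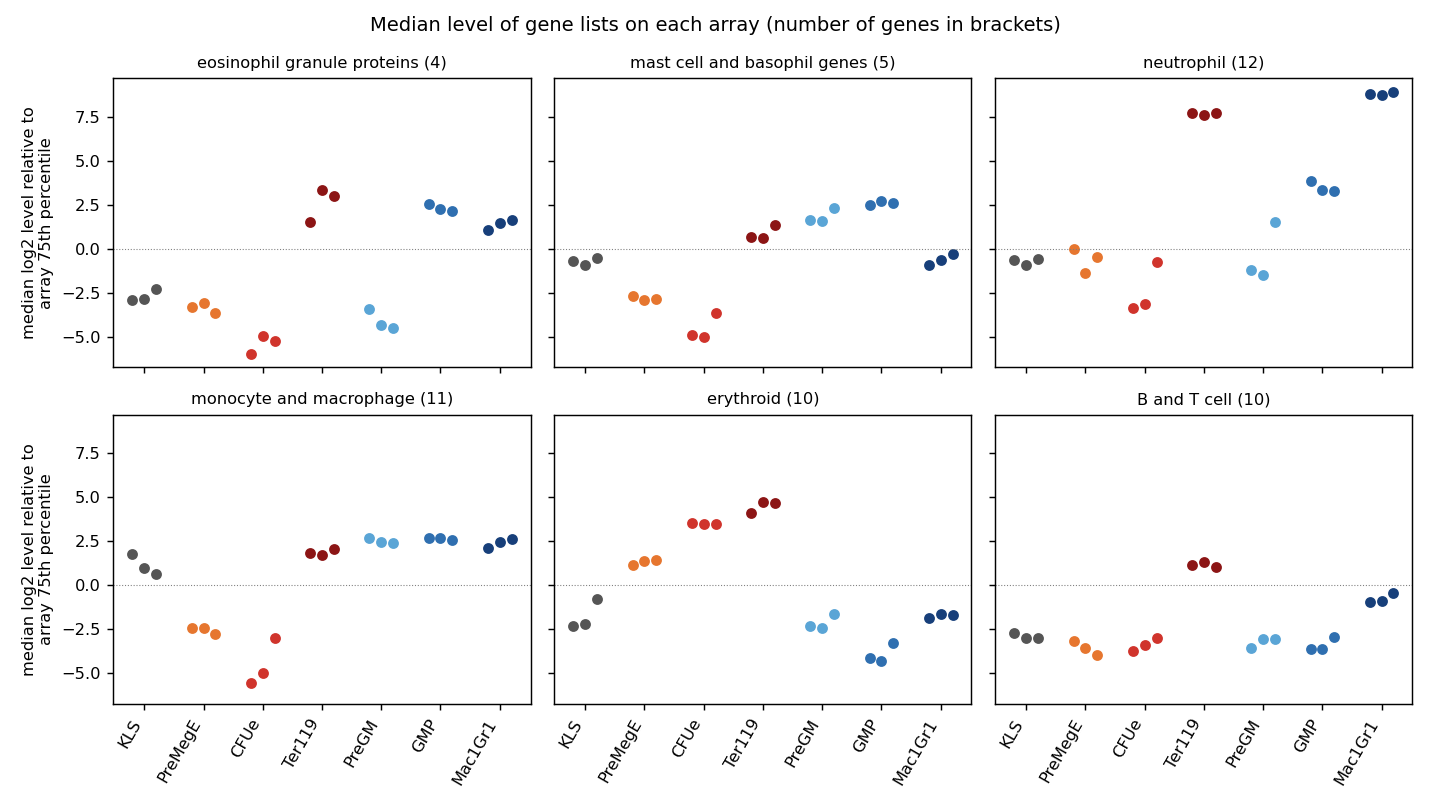
Median log2 level of each gene list on each array (points), by fraction, for the eosinophil genes, the mast cell and basophil genes and 4 lists of other lineages, with the number of genes in brackets. The neutrophil list is high in Ter119 as well as in Mac1Gr1, and the third CFUe and the third PreGM array lie above the other arrays of their fractions in that list.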

How the data were processed

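Total RNA of each fraction was amplified, labelled with Cy3 together with synthetic spike-in RNAs and hybridised to 1-colour whole mouse genome arrays. The deposited scanner files hold background-corrected intensity values from the authors' image analysis (Agilent Feature Extraction 10.7.1.1), and a deposited table of the whole series gives normalized log2 values, the method of which is not given in the sources used here. From each scanner file, log2 intensity minus the 75th percentile over the 43379 spots that were not controls was taken. Outlier spots (80 to 283 per array) were left out, no spot was saturated, and spots of a probe were averaged, which left 41174 probes, 26690 of them named through RefSeq accessions in a table of GRCm38.p6.

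Testing was limited to the 29527 probes that were, in at least 1 fraction, well above background on each of its 3 arrays, and used limma 3.58.1 under R 4.3.3 (two-sided, moderated by eBayes, 1 mean per fraction, 21 arrays, no block, 14 residual degrees of freedom). An adjusted p comes from this fit unless an alternative is named beside it. For a gene well above background on no array of a fraction, the fold is a bound: on each dim array the probe took its own signal or the lowest well-above-background signal of any probe on that array, whichever was higher, and the brighter mean was divided by their mean. Such a bound holds for the main processing only and is not the detection limit of the gene's own probe. Over the alternatives, the smallest log2 changes of Prg3 in Ter119 vs CFUe (3.53) and of Epx in CFUe vs GMP (-5.20) lay under their bounds. The number of arrays limits the precision. The code of the fit was also run on simulated data with independent noise and no slide or array effects. That run cannot speak to deviations shared by slide or to arrays that stand apart. The 9 genes and the lists were chosen with earlier results of these data known. The text names the 9 genes, from each list at most the 3 largest rises and falls among genes called in PreMegE vs GMP, every receptor chain, the factors Gata1, Gata2, Cebpa and Spi1, and the 3 genes most like each of the 9. Ltf, Elane and Ly6a are among these. Alternatives were quantile and spike-in scaling, normexp background correction (offset 50, on median signals), testing all probes, a block for slide or for replicate number, the authors' normalized table, dropping the fold limit, fitting only the fractions compared, and each array left out. Leaving out the third CFUe and the third PreGM array together was added after seeing the data. The arrays lay on 9 slides, scanned on 1 day. Same-numbered arrays of different fractions did not deviate together (median correlation 0.003 over 63 pairs, -0.43 to 0.37). Arrays of different fractions on the same slide deviated together somewhat, with a median correlation of 0.118 over 15 pairs (-0.05 to 0.40). On other slides the median was -2.2e-05 over 174 pairs (-0.43 to 0.52). Start-region sequences came from RefSeq. Plots used matplotlib 3.10.9 and pandas 2.3.3 under Python 3.11.15.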

Additional observations from a re-analysis of the deposited data

Results flagged for a closer look

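Each of the 9 genes changed differently on the erythroid and on the myeloid side at both steps after the first progenitor, with limma's interaction contrast adjusted over the 29527 probes. From the earlier to the later progenitor (CFUe minus PreMegE, less GMP minus PreGM), the difference on the log2 scale was -12.67 for Prg2, -6.99 for Prg3, -6.16 for Epx and -8.25 for Rnase2a, the eosinophil granule genes, and -5.35 for Cpa3, -2.76 for Mcpt8, -2.94 for Ms4a2, -0.97 for Fcer1a and -5.04 for Hdc. Adjusted p values ran from 4.68e-10 for Rnase2a to 0.0109 for Fcer1a, and 34.3% of all probes differed at this step. For Prg3, Epx and Ms4a2 the values rest on CFUe arrays not well above background, and their values at the bound are given below.

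From the later progenitor to the mature cells (Ter119 minus CFUe, less Mac1Gr1 minus GMP), every sign was the opposite. The difference was 10.62 for Prg2, 9.08 for Prg3, 9.66 for Epx and 6.82 for Rnase2a, and 8.21 for Cpa3, 9.87 for Mcpt8, 5.67 for Ms4a2, 2.49 for Fcer1a and 5.12 for Hdc. Adjusted p values ran from 5.54e-11 for Prg3 to 1.48e-06 for Cpa3, and 55% of all probes differed. Prg3, Epx and Ms4a2 were not well above background in CFUe, and with CFUe at its bound the differences were -5.51, -4.92 and -2.01 at the earlier step and 7.60, 8.42 and 4.74 at the last. Both sets rest on the same CFUe and GMP arrays, which enter the 2 contrasts with opposite signs. The markers of other lineages on the Ter119 arrays are given with the report.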

How the results depend on the processing

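Of 216 recomputed counts of genes called or differing, 213 stayed within 1.5 times the reported count. The other 3 were Ter119 vs Mac1Gr1 with spike-in scaling (3 in place of 6), PreMegE vs KLS with slide as a block (2 in place of 4) and CFUe vs PreMegE with normexp correction (3 in place of 8), whose offset compresses changes between dim probes. With 1 array left out, the counts equalled the reported ones except for Ter119 vs Mac1Gr1, at 5 to 7. Without the third CFUe and the third PreGM array, 8 genes in place of 9 differed at the earlier step. Of 1944 recomputed changes of single genes, 1853 kept their direction and side of the threshold, 32 lost a call, 27 gained one and 32 turned in sign, none of them called as reported. The turned values were 0.048 for Ms4a2 in PreMegE vs PreGM without the third PreGM array, alone or with the third CFUe array (-0.71 to 0.048 over single arrays); 0.38, 0.40, 0.39 and 0.40 for Rnase2a in Ter119 vs Mac1Gr1 with quantile scaling, normexp, slide block and series table (-0.18 to 0.21 over single arrays). In PreMegE vs KLS they were 0.23, 0.034 and 0.23 for Prg3 and 0.16, 0.047 and 0.16 for Epx with quantile scaling, normexp and series table (-0.37 to 0.18 and -0.22 to 0.043 over single arrays), and -0.16 for Fcer1a with spike-in scaling. In CFUe vs PreMegE Fcer1a was at 0.12, 0.014 and 0.14 with quantile scaling, normexp and series table (-0.29 to 0.12 over single arrays). With spike-in scaling Prg3 was at -0.32 in PreGM vs KLS, Cpa3 at 0.41 and Ms4a2 at 0.99 in GMP vs PreGM, and Fcer1a at -1.54 in Mac1Gr1 vs GMP, the one turned value that was itself called. Ms4a2 in GMP vs PreGM was at 0.091 with quantile scaling and with the series table, at 0.47 without the third PreGM array, alone or with the third CFUe array, and at -0.30 to 0.47 over single arrays. Where no cause is named, the cause was not tested. Spike-in scaling turned the split of all probes called from 3678 higher and 2861 lower to 1426 and 11106 in PreMegE vs GMP, and from 1183 and 1878 to 14019 and 506 in GMP vs PreGM. With replicate number as a block, 115 of 117 values kept their call, and Cpa3 was called in Ter119 vs Mac1Gr1 (1.48, adjusted p = 0.0358) and in PreMegE vs KLS (1.83, adjusted p = 0.03). Other probes of each gene could not be tried, because each gene had 1 probe.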
